A study of Homo sapiens with 6 samples.

Results

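The genes described here encode the linker histone H1 and the core histones H2A, H2B, H3 and H4. They were chosen by symbol (H1-, H2AC, H2BC, H3C or H4C followed by a number), and the 69 described are among the 61280 rows of the deposited table. They comprise 9 H1, 16 H2A, 17 H2B, 13 H3 and 14 H4 genes, and 24 of the 69 reached 1 TPM (a length-scaled share of the library's transcripts) in at least 3 samples. RNA was sequenced from MDA-MB-231, an established human breast cancer cell line grown in DMEM with fetal bovine serum. The control group was 3 samples of untreated cells, and the irradiated group was 3 samples taken 24 h after 20 Gy of X-rays. How long the controls were cultured is not stated, so culture time and irradiation cannot be told apart. The labels do not tie replicates to separate cultures, and p-values therefore measure a spread among samples that may be only technical.

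DNA is wrapped around an octamer of core histones, and H1 binds the linker DNA between octamers. Most core histone genes and several H1 genes lie in clusters, are transcribed when DNA is replicated in S phase, and make short intronless mRNAs. Those mRNAs end in a conserved stem-loop in place of a poly(A) tail; the stem-loop is bound by SLBP, which directs their processing, translation and decay. Some clustered genes can also make polyadenylated transcripts. Replication-independent histone genes such as H1-10 are expressed outside S phase as ordinary polyadenylated mRNAs.

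"Clustered" described most of the genes but not H1-10, which had the highest mean level of the 69 in controls. By GENCODE 29, 55 of the 69 lie on chromosome 6 between 25726132 and 27893843 (hg38), and 11 on chromosome 1 between 149782689 and 149887916. The other 3 are H1 genes elsewhere: H1-10 and H1-8 on chromosome 3, and H1-7 on chromosome 12. Of the 24 expressed genes, 18 were on chromosome 6, 5 on chromosome 1, and the other was H1-10.

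In the annotated transcripts of the expressed genes, 2 kinds of 3′ end site were searched for, and examples of each follow. Both can occur in the same gene. The stem-loop, searched by its consensus on the sense strand after the stop codon, was found in 9 of the 24 expressed genes in 4 versions. In GENCODE 29 as a whole, 0.25% of 19702 protein-coding genes hold it anywhere in a protein-coding transcript. The version in H2BC5 was shared with H2BC4, that in H2AC18 with H2AC19, H2AC6, H2BC15 and H2BC18, and those of H4C8 and H4C14 were held by no other expressed gene. Capitals mark the stem-loop.
H2BC5 (chr6:26158582-26158607, plus strand): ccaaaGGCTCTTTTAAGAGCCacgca
H2AC18 (chr1:149842218-149842243, minus strand): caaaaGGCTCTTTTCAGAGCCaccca
H4C8 (chr6:26285126-26285151, minus strand): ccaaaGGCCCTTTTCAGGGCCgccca
H4C14 (chr1:149833027-149833052, plus strand): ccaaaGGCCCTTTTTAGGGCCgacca

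A poly(A) signal (AATAAA or ATTAAA within 40 bases of a transcript's end, and beyond the stem-loop where that transcript held one) was present in 11 of the 24, including all 9 with a stem-loop. In 7 of those 9 a single transcript held both; in H2BC4 and H2BC15 the signal was in another transcript than the stem-loop. In GENCODE 29, 80.75% of protein-coding genes have either hexamer in the last 40 bases of a protein-coding transcript. H1-10 and H2BC11 have the signal and no match to the stem-loop consensus, and H4C8 has transcripts that run past its stem-loop to a signal. Capitals mark the hexamer in the ends of H1-10 and H4C8.
H1-10 (chr3:129314775-129314804, minus strand): ttttttgggcacAATAAAgcgtttaaacct
H4C8 (chr6:26281062-26281091, minus strand): caataaaaggtgAATAAAatcaggtcactc

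Another 11 of the 24 have a GENCODE 29 model of the coding sequence alone, which says nothing of how their mRNA ends. Neither the annotation behind the deposited TPM nor any poly(A) selection is given in the sources used here; the labels name a TruSeq RNA kit. A library of poly(A) RNA would hold few mRNAs that end at the stem-loop, so the levels below may cover only part of each gene's transcripts.

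Between 14248 and 14889 genes reached 1 TPM per library, and the number of reads is unknown. The cell line's defining markers VIM, CD44, AXL, KRT8 and KRT18 summed to 3113 to 3204 TPM in controls and 2734 to 2814 TPM in irradiated samples. Of the 5 hormone receptor and luminal markers, PGR was listed at 0 throughout and ESR1 and CDH1 stayed at or under 0.4 TPM, while ERBB2 was at 20.94 to 27.94 TPM and EPCAM at 8.32 to 11.27 TPM. The 4 leukocyte markers summed to 0.32 to 0.95 TPM in controls and 0.61 to 40.58 TPM in irradiated samples. The high value was PTPRC in irradiated replicate 1 (40.36 TPM), where CD3E was at 0.05; that library is left out in turn below. The 3 endothelial markers summed to at most 1.64 TPM, and the 4 fibroblast markers to 6.8 to 9.8 against 9.07 to 13.42 TPM, nearly all of it COL1A1.

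H1-10, H2AC17 and H4C8 fell and H2BC5 rose, which is 4 of the 24 tested genes (16.7%). Of the 24, 16 had a negative and 8 a positive log2 difference, where 45.1% of all tested genes had a negative one. Copies with identical coding sequences were counted separately. A gene is called, here and below, where limma's Benjamini-Hochberg adjusted p is under 0.05 in a fit of log2(TPM + 1) over all 14621 tested genes. Fewer cells with a transcript and less transcript per cell cannot be told apart in bulk RNA. Over all tested genes 10.6% were called, 6.53% higher and 4.07% lower (955 and 595 genes; 778 and 852 after median-ratio scaling). The median log2 difference was -0.18 over the 24 (-0.36 without irradiated replicate 1) and 0.03 over all tested genes. The count of 4 became 2, 1 and 2 without control replicate 1, control replicate 2 and irradiated replicate 1. The groups did not overlap for 8 of the 24 (6 lower, 2 higher), against 34.9% of all tested genes (14.5% lower, 20.4% higher). By type, the calls were 1 of 3 H1, 1 of 7 H2A, 1 of 7 H2B, 0 of 2 H3 and 1 of 5 H4 genes.

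**Figure D1:**
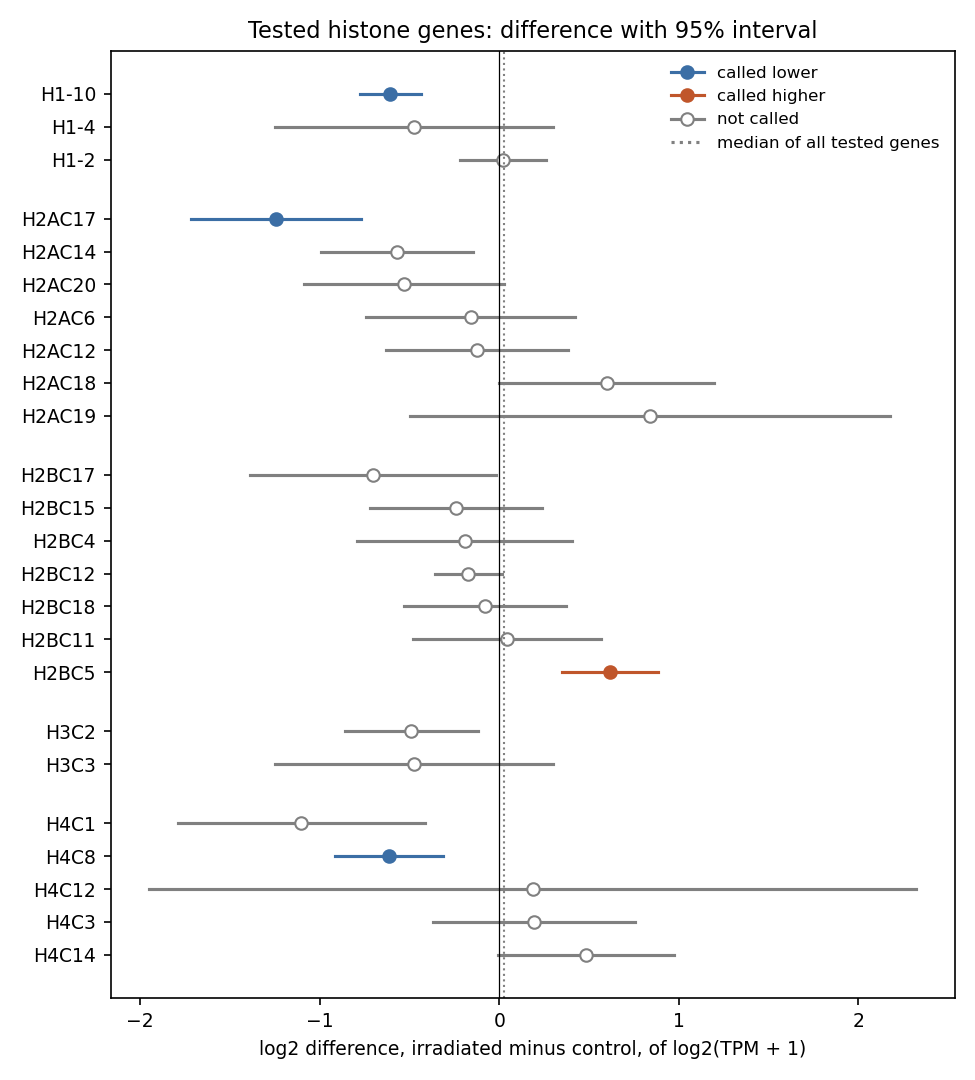
Log2 difference (irradiated minus control, on log2(TPM + 1)) with its 95% confidence interval for the 24 tested histone genes, grouped by type; filled points passed an adjusted p of 0.05 and the dotted line is the median of all tested genes. H2AC17 lies farthest to the left among the filled points, H2BC5 is the filled point on the right, and the intervals of H2AC19 and H4C12 are the widest.

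H1-10, a replication-independent linker histone gene, fell, and held 28.8% of the summed TPM of the 69 genes in controls. It was at 110.25, 109.40 and 115.59 TPM in controls and at 78.58, 75.99 and 65.28 TPM after irradiation. The groups did not overlap, and irradiated replicate 3 was the lowest. The mean went from 112 ± 3.36 to 73.3 ± 7.05 TPM (SD, n = 3 per group). Its log2 difference was -0.61 ± 0.07 SE (adjusted p = 0.00662), and the call held in all 15 alternatives (-0.66 to -0.53, adjusted p up to 0.0417); without irradiated replicate 1 it was at -0.66. The gene lies on the minus strand, and the antisense gene H1-10-AS1 (H1FX-AS1 in GENCODE 29) overlaps it. Strand is not given, so reads of the pair cannot be told apart, but the antisense row held only 0.54 to 0.95 TPM.

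The clustered H1 genes gave another picture. H1-2 was at 37.25, 32.72 and 32.25 TPM in controls and 38.81, 35.24 and 30.07 TPM after irradiation. The values interleaved, and the difference was 0.02 with a 95% interval of -0.22 to 0.26 (adjusted p = 0.914). H1-4 was near the detection filter, at 1.20, 1.53 and 1.91 against 2.12, 0.55 and 0.25 TPM, with the highest and the lowest values both in irradiated samples (log2 difference -0.47, interval -1.25 to 0.30). The summed level of the 9 H1 genes was 147.4 ± 3.31 TPM in controls and 109.1 ± 11.99 TPM in irradiated samples. Without H1-10 the sums were 35.7 ± 2.41 and 35.8 ± 5.11 TPM, so that gene carried the difference.

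**Figure D2:**
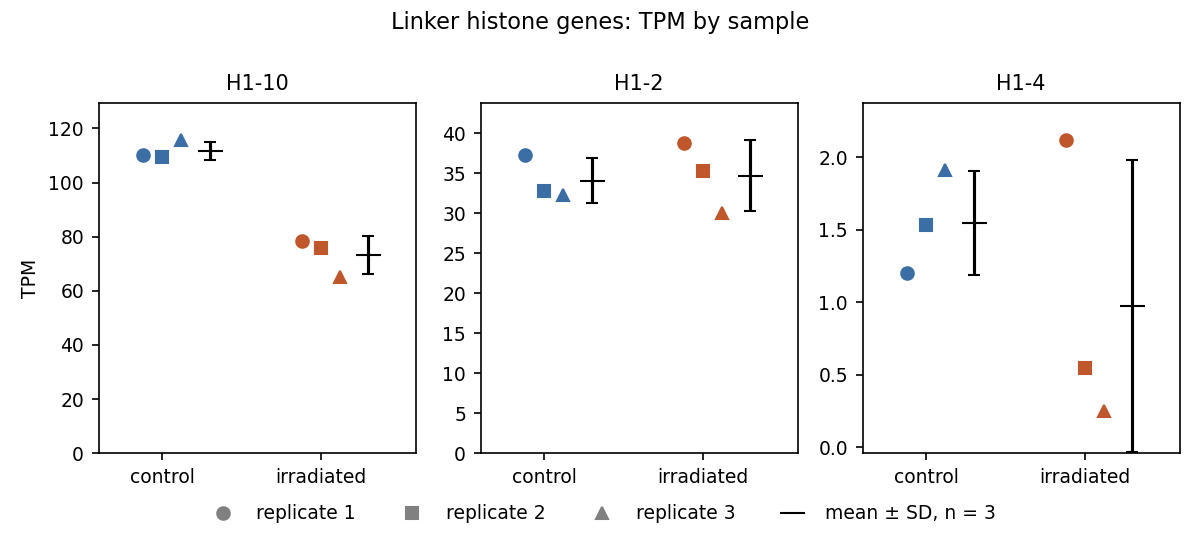
TPM of the 3 tested H1 genes in each sample (circle, square and triangle for replicates 1 to 3; black dash and bar for the mean ± SD, n = 3), each panel on its own linear scale. H1-10 is lower in all 3 irradiated samples, H1-2 overlaps fully, and H1-4 spreads from 0.25 to 2.12 TPM within the irradiated group.

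Among H2A genes, H2AC17 (chromosome 6, 27892757 to 27893149) fell, from 5.49, 4.24 and 3.89 TPM to 0.78, 1.74 and 1.56 TPM. Even the lowest control was more than the highest irradiated value. The log2 difference of -1.25 ± 0.20 SE (adjusted p = 0.0145) was the largest fall of the 24 on this scale. At this low level the call was fragile: it was lost without control replicate 1 (adjusted p = 0.0584) or 2 (0.0593), with no filter (0.0621) and with the replicate block (0.0598). H2AC17 overlaps H3C12 on the same strand, whose row was at 1.17 TPM or less.

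H2AC14 and H2AC20 had lower means after irradiation but were not called. H2AC14 was at 3.23, 2.71 and 3.11 TPM in controls and at 1.10, 2.06 and 2.06 TPM in irradiated samples, with no overlap (log2 difference -0.57 ± 0.18, adjusted p = 0.0877). H2AC20, from the chromosome 1 cluster, was at 7.24, 7.89 and 9.31 against 3.79, 4.64 and 8.26 TPM. Irradiated replicate 3 was inside the control range here, and without it H2AC20 was called (log2 difference -0.81, adjusted p = 0.0440, against -0.53 and 0.196 with it). H2AC6 was at 10.29 to 14.02 TPM in controls and 7.22 to 15.61 TPM after irradiation, and H2AC12 at 1.26 to 1.85 and 0.77 to 1.82 TPM. Both overlapped, with log2 differences of -0.16 (interval -0.74 to 0.42) and -0.12 (interval -0.63 to 0.38).

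H2AC18 and H2AC19 are mirror copies on chromosome 1 with identical coding sequences, so reads cannot be assigned firmly to either. H2AC18 was at 13.77, 10.93 and 25.11 TPM in controls and 24.53, 23.25 and 24.72 TPM in irradiated samples. H2AC19 was at 8.67, 8.93 and 1.28 against 13.88, 10.76 and 6.13 TPM. In control replicate 3 the first copy was high where the second was low, and neither gene was called alone (adjusted p = 0.179 and 0.385). Without that library H2AC18 was called (log2 difference 0.92, adjusted p = 0.0187).

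Summed over the pair, the split between copies no longer matters. The sum was 22.44, 19.86 and 26.39 TPM in controls and 38.41, 34.01 and 30.85 TPM in irradiated samples, with no overlap. In a fit over all genes with identical copies summed, an alternative chosen after seeing the data, the pair rose (log2 difference 0.57 ± 0.12 SE, interval 0.29 to 0.85, adjusted p = 0.0274).

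Another 3 pairs among the 69 genes had identical coding sequences. H4C14 and H4C15 together were at 7.83, 8.72 and 7.17 TPM in controls and 11.50, 9.88 and 16.37 TPM in irradiated samples, not overlapping but not called (log2 difference 0.58 ± 0.17, adjusted p = 0.0746). H4C11 was listed at 0 in 4 libraries, but at 12.83 TPM in control replicate 3, where H4C12 was at 0.33 TPM, and at 3.29 TPM in irradiated replicate 3. H4C12 alone was at 9.95, 18.60 and 0.33 against 6.80, 10.41 and 3.72 TPM, the widest interval of all (-1.95 to 2.32). Their sum was at 9.95, 18.60 and 13.16 TPM against 6.80, 10.41 and 7.01 TPM, with a log2 difference of -0.70 ± 0.23 (adjusted p = 0.10) where H4C12 alone gave 0.19. H3C14 and H3C15 had the same value as each other in every library, at 0.51 TPM or less.

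**Figure D3:**
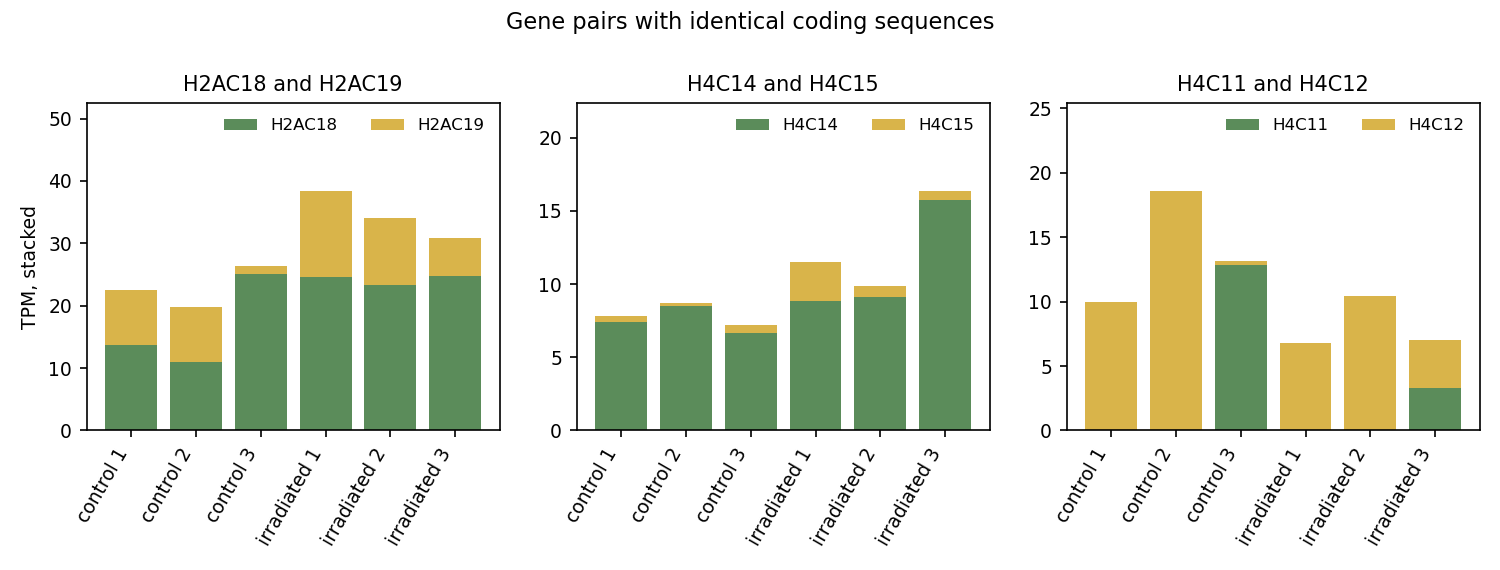
TPM of 3 gene pairs with identical coding sequences, stacked so that bar height is the sum, for each of the 6 samples. The share of each copy jumps between samples (H4C11 against H4C12, H2AC19 in control replicate 3), and the summed H2AC18 and H2AC19 bar is taller in all 3 irradiated samples than in any control.

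H2BC5 (chromosome 6, 26158146 to 26171349) was the only histone gene called higher on its own. It was at 9.72, 7.59 and 8.34 TPM in controls and at 14.73, 12.21 and 13.88 TPM in irradiated samples. The groups were well apart, from 8.55 ± 1.08 to 13.6 ± 1.28 TPM, with a log2 difference of 0.62 ± 0.11 SE (adjusted p = 0.0206). The call was lost without control replicate 2 (adjusted p = 0.0794) or 3 (0.0624), without irradiated replicate 1 (0.0621) or 3 (0.0667), and with no filter (0.0623). The difference was 0.54 to 0.70 over the 15 alternatives. GENCODE 29 gives H2BC5 a transcript of 496 bases without introns that ends 39 bases beyond the stem-loop, and a longer one with an intron. The pseudogene LARP1P1 overlaps it on the same strand, at 1.19 TPM in irradiated replicate 1 and 0 in every other library. The antisense gene AL353759.1 overlaps it too, at 0.06 TPM or less.

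H2BC12 was the most abundant core histone gene among the 69, and its control values overlapped those of H1-10. It was at 97.96, 117.61 and 113.95 TPM in controls and 90.39, 100.95 and 100.30 TPM in irradiated samples. The groups overlapped, and the difference of -0.17 (interval -0.36 to 0.01, adjusted p = 0.208) was small. H2BC17 was at 4.84, 8.28 and 11.30 against 6.20, 3.59 and 3.68 TPM, overlapping through control replicate 1 (log2 difference -0.70, interval -1.39 to -0.02, adjusted p = 0.168). The low-level H2B genes H2BC4 (log2 difference -0.19), H2BC11 (0.04), H2BC15 (-0.24) and H2BC18 (-0.08) stayed between 0.78 and 5.84 TPM in all samples, and the groups overlapped for each.

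Both tested H3 genes had lower means after irradiation, and neither was called. H3C2 was at 3.63, 2.41 and 2.77 TPM against 1.85, 1.51 and 2.01 TPM, without overlap (log2 difference -0.49 ± 0.16, adjusted p = 0.0942), and was called after quantile normalization alone (-0.62, adjusted p = 0.0400). H3C3 was at 4.19, 3.71 and 2.07 TPM against 2.62, 0.87 and 3.14 TPM. Its groups overlapped (log2 difference -0.47, interval -1.25 to 0.30).

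The H4 genes, apart from the shorter H4C7, have coding sequences of equal length. Of them, H4C8 (chromosome 6, 26277609 to 26285638) fell. It was at 6.68, 5.52 and 6.03 TPM in controls and 3.17, 3.51 and 4.23 TPM in irradiated samples, without overlap. The log2 difference was -0.61 ± 0.13 SE (adjusted p = 0.0289). The call was lost with no filter (adjusted p = 0.0887), with the replicate block (0.0816), and without irradiated replicate 1 (0.0789) or 2 (0.0526). Leaving out a control library also ended it (0.102, 0.0792 and 0.0800 for replicates 1 to 3).

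H4C1 was at 8.32, 5.66 and 9.73 against 2.11, 2.43 and 5.31 TPM. No irradiated value reached a control, but irradiated replicate 3 was close, and the gene missed the threshold (log2 difference -1.10 ± 0.29, adjusted p = 0.0558). It was called without that library (-1.42, adjusted p = 0.0325), with a 5 TPM filter (0.0419), after median-ratio scaling (0.0472) and after quantile normalization (0.0429). H4C14 was at 7.41, 8.48 and 6.69 against 8.87, 9.11 and 15.77 TPM (log2 difference 0.48, adjusted p = 0.184), higher in every irradiated sample. H4C3, which overlapped, was at 0.83 to 1.70 TPM in controls and 0.83 to 2.04 TPM after irradiation.

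**Figure D4:**
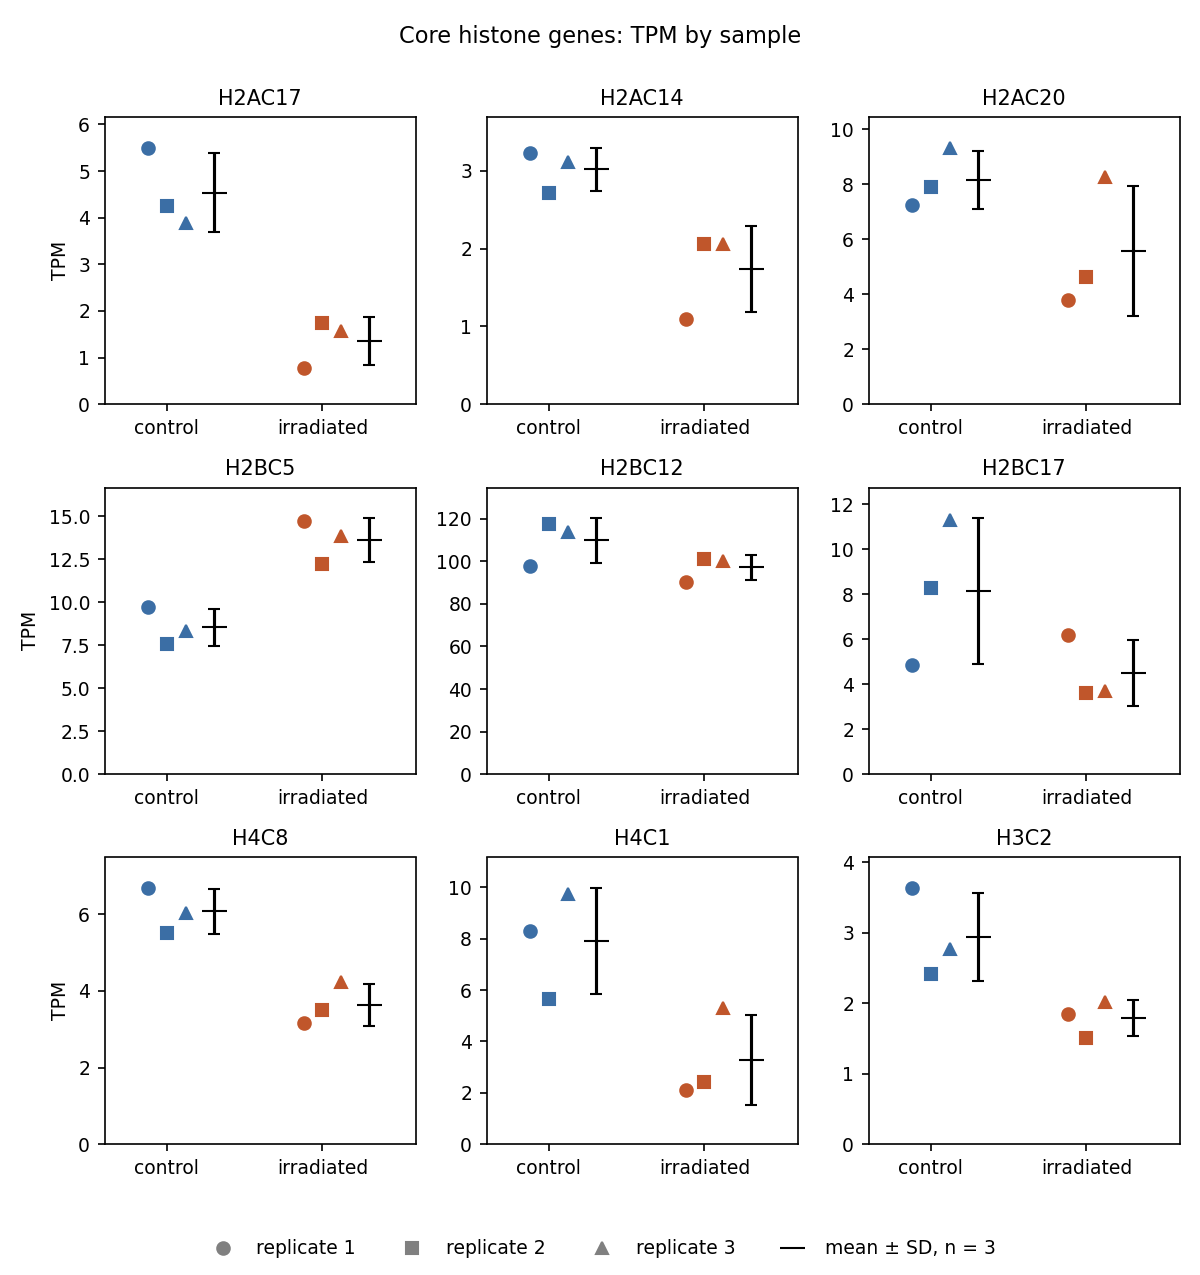
TPM of 9 core histone genes in each sample (circle, square and triangle for replicates 1 to 3; black dash and bar for the mean ± SD, n = 3), each panel on its own linear scale. H2AC17 and H4C8 (both called lower) and H2BC5 (called higher) are separated between groups; H2AC20, H2BC12 and H2BC17 overlap.

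The core histone genes were also summed over all members of each type, and no difference between types was tested. H2A genes summed to 54.7 ± 5.99 TPM in controls and 58.4 ± 5.46 TPM in irradiated samples, H2B to 139.9 ± 13.2 and 126.9 ± 2.41, H3 to 9.26 ± 1.95 and 6.61 ± 1.91, and H4 to 37.1 ± 2.48 and 29.3 ± 5.18. The groups overlapped for each of these sums. The log2 ratio of the mean sums was 0.095 for H2A, -0.14 for H2B, -0.49 for H3 and -0.34 for H4. Without the most abundant gene of each type it was -0.15 for H2A (without H2AC18), -0.019 for H2B (without H2BC12), -0.43 for H3 (without H3C3) and -0.30 for H4 (without H4C12). The identical copies H2AC19 and H4C11 stayed in those sums. The H2A and H4 values therefore depend on how reads were split between copies. The 68 genes other than H1-10 summed to 264, 278.7 and 287.3 TPM in controls and 260.9, 249.3 and 260.9 TPM in irradiated samples, a log2 ratio of -0.11 without overlap. H1-10 made up 28.2% to 29.5% of the summed TPM of the 69 genes in controls and 20.0% to 23.4% in irradiated samples.

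The log2 differences were also read by gene model. Of the 11 coding-only genes, 9 had a negative log2 difference, against 45.1% of all tested genes. Their median was -0.49 and their range -1.25 to 0.19, and H2AC17 was the gene called. Of the 10 clustered genes with a poly(A) signal, 5 were negative and 5 positive, with a median of -0.02 and a range of -0.61 to 0.84; H4C8 was called lower and H2BC5 higher. These groupings were made after the values were seen and no difference between them was tested; their ranges overlapped. By position, the 18 genes of chromosome 6 had a median log2 difference of -0.22, and the 5 of chromosome 1 had 0.48, where 2 of the 5 are the copies H2AC18 and H2AC19.

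Promoter sequence (RefSeq, GRCh38.p14, from 250 bases before to 50 after the start) was matched for 21 of the 24 tested genes; H2AC12, H4C1 and H4C3 had no entry. CCAAT, the box bound by NF-Y, was present on either strand in 17 of the 21, against 39.7% of 27305 genes, and TATAAA in 15 of the 21, against 3819 of 27305 genes. The octamer ATTTGCAT, known for H2B promoters, was present in 5 of 7 H2B and 4 of 14 other tested genes, against 2.2% of all. H2BC5 and H2BC15 were the 2 H2B genes without it in this window. The 4 other genes with it were H2AC6, H2AC14, H2AC17 and H2AC20, which all held CCAAT too.

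The other 45 genes were under the filter. Of these 22 were listed at 0 in all 6 libraries. Another 16 were above 0 in at least 1 library but under 1 TPM in every library. None of the 22 belonged to a pair with identical coding sequences, and why they were listed at 0 was not tested. The remaining 7 reached 1 TPM in 1 or 2 samples: H4C11, H4C15 (up to 2.63 TPM), H2AC15 (1.53), H3C10 (1.3), H3C1 (1.22), H3C12 (1.17) and H2BC3 (1.11). H2BC14, named after its values were seen, was at 0.96, 0.60 and 0.50 TPM in controls and listed at 0 in all irradiated samples, and was called when no filter was used (adjusted p = 0.0415). Of the 24 tested genes, 16 reached 1 TPM in all 6 samples. H1-4, H2AC17, H2AC12, H2BC15, H2BC18 and H3C3 reached it in all 3 controls but not in all irradiated samples.

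Genes around histone supply were read from the same fit in 4 lists. Of 19 genes that process or degrade histone mRNA, 2 fell and none rose, 10.5% against the background of 10.6%; the median log2 difference was -0.19. SLBP, which binds the stem-loop, was at 63.46, 65.15 and 63.83 TPM in controls and 44.39, 43.95 and 46.21 TPM in irradiated samples. The groups were far apart (log2 difference -0.51 ± 0.05 SE, adjusted p = 0.00351). SRRT, also called ARS2, which links the mRNA cap to 3′ end processing, fell from 131.9 ± 3.14 to 89.8 ± 4.94 TPM (log2 difference -0.55 ± 0.05 SE, adjusted p = 0.00358). Both kept their calls in all 15 alternatives. NPAT, the cyclin E-CDK2 substrate that activates clustered histone genes, and CASP8AP2 (FLASH), its partner at the histone locus body, were not called (adjusted p = 0.272 and 0.306).

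Of 20 histone chaperone genes, 6 fell and none rose (30%, with a median log2 difference of -0.14). Over all tested genes 10.6% were called, 4.07% lower, and no difference from that share was tested. SSRP1, a subunit of the FACT complex, was at 290.23, 280.40 and 273.77 TPM in controls and 191.13, 185.80 and 196.34 TPM in irradiated samples, and was called in all 15 alternatives (log2 difference -0.56 ± 0.04 SE, adjusted p = 0.00201). CHAF1B, a subunit of chromatin assembly factor CAF-1, fell from 17.1 ± 0.822 to 12.9 ± 0.193 TPM (-0.38, adjusted p = 0.0221). RBBP4, also in CAF-1 (-0.31, adjusted p = 0.0467), and NAP1L1, an H2A-H2B chaperone (-0.29, adjusted p = 0.0391), fell by less. CHAF1B, RBBP4 and NAP1L1 lost their calls in 6, 8 and 10 of 15 alternatives (adjusted p up to 0.0856, 0.137 and 0.123). Among the alternatives that ended each of the 3 calls was leaving out control replicate 1, 2 or 3 or irradiated replicate 1 or 3; for NAP1L1, irradiated replicate 2 did so too.

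Of 9 tested replication-independent variants outside the symbol rule, H2AZ2 fell, from 196.1 ± 4.39 to 161.1 ± 3.39 TPM (log2 difference -0.28 ± 0.04 SE, adjusted p = 0.00921, called in all 15 alternatives). The other 8 were not called, so 11.1% of the list was called, near the 10.6% of all tested genes. The list's median log2 difference was -0.03. H3-3B, which encodes H3.3, was at 507.72, 524.05 and 507.72 TPM in controls and 486.95, 473.02 and 553.69 TPM after irradiation. H2AZ1 was at 1102 to 1218 TPM in controls and 1124 to 1135 TPM after irradiation. The groups overlapped for both. They did not overlap for H2AZ2 and for 3 uncalled variants, each lower in all irradiated samples. Over all tested genes, 34.9% had no overlap, and 14.5% had none and were lower. MACROH2A2, a macroH2A gene, was at 1.07 to 2.69 against 0.51 to 0.96 TPM (log2 difference -0.59, adjusted p = 0.160). It reached 1 TPM in the controls alone and passed the filter through them, so its lack of overlap was fixed by the filter. MACROH2A1 was at 209.1 to 217.6 against 181.1 to 207.6 TPM (-0.14, adjusted p = 0.159), and H2AX, the variant phosphorylated at DNA breaks, at 169.7 to 182.1 against 159.1 to 168.0 TPM (-0.10, adjusted p = 0.190).

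Of 14 regulators and markers of S phase, 6 fell and 1 rose (50%, median log2 difference -0.21). The share over all tested genes was 10.6%, and no difference from it was tested. PCNA, the replication clamp, was at 229.66, 219.89 and 240.28 TPM in controls and 164.75, 159.11 and 161.50 TPM in irradiated samples (log2 difference -0.50 ± 0.04 SE, adjusted p = 0.00309), and was called in all 15 alternatives. E2F1 (-0.35, adjusted p = 0.0154) and E2F2 (-0.52, adjusted p = 0.0249), transcription factors of S phase genes, and CCNE2, a cyclin E gene (-0.60, adjusted p = 0.0207), fell too. E2F1 was no longer called when control replicate 1, control replicate 2 or irradiated replicate 3 was left out (highest adjusted p 0.0652). For E2F2 leaving out any library except irradiated replicate 2 had that result (0.0925), and for CCNE2 leaving out any control library or irradiated replicate 1 (0.0862). CDKN1A, the p21 gene, was the riser (0.27, adjusted p = 0.0482), named for being the only one; its call was lost without any single library and in 12 of 15 alternatives in all (adjusted p up to 0.152). CCNE1 and CDK2 were not called (adjusted p = 0.509 and 1.00).

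**Figure D5:**
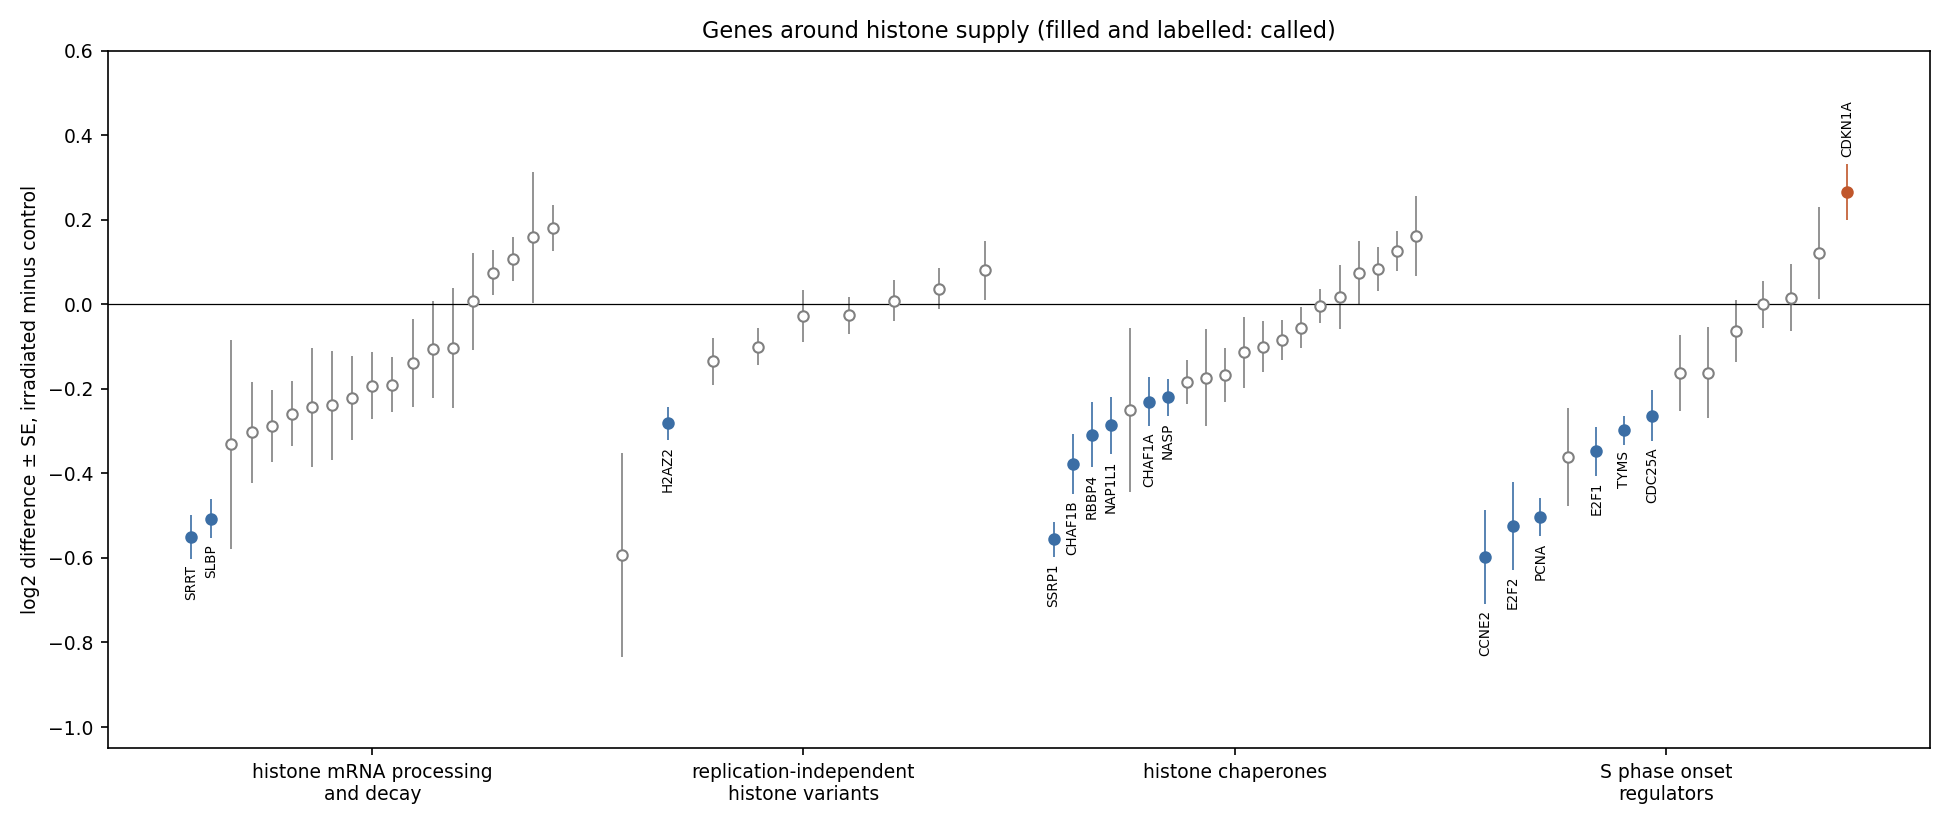
Log2 difference ± SE (irradiated minus control, on log2(TPM + 1)) of each tested gene in 4 lists around histone supply; filled, labelled points passed an adjusted p of 0.05. SRRT, SLBP, SSRP1 and the S phase genes CCNE2, E2F2 and PCNA lie at or below -0.50, and CDKN1A is the only filled point above 0.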

How the data were processed

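The authors deposited 1 table of TPM values per gene and sample, scaled so that every column has the same total. The submitters' processing notes name hg38 as the build, and HISAT2, StringTie and RSEM as tools; no version, role, annotation or strandedness is given in the sources used here. Depth is unknown, so precision was judged from the spread between replicates.

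Groups came from the sample titles. Genes reaching 1 TPM in 3 or more of the 6 samples (14621) were transformed to log2(TPM + 1), which understates changes of low genes, and compared with limma 3.58.1 in R 4.3.3 (eBayes with trend, two-sided). P-values were adjusted by Benjamini-Hochberg across every tested gene, and calls required an adjusted p under 0.05. The fit was tested on simulated data for recovery of known changes. No limit was set there on false calls, so that test does not bear on single calls. The members, lists, tests and alternatives were chosen with earlier results of these data known. The symbol rule matched 70 genes; 1 is not reported here, and every count of histone genes is over the other 69. The text names each of their tested genes, untested ones that reached 1 TPM in any sample and, per list, up to 4 called genes with the largest changes; NPAT, CASP8AP2, H3-3B, H2AZ1, MACROH2A1, MACROH2A2, H2AX, CCNE1, CDK2, CDKN1A and H2BC14 fall outside this rule and were picked once their values had been seen.

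Gene models and 3′ ends came from GENCODE 29 by gene identifier; H3C2 and H3C3 were matched by older symbol. Control and irradiated samples of the same number deviated from their groups with correlations of 0.03, -0.06 and -0.03, so replicate numbers were not treated as pairs. At most 0.479% of tested rows had identical values in 2 libraries of a group, so all 6 counted as separate samples. Each result was recomputed with a pseudocount of 0.1, without a filter, with a 5 TPM filter, median-ratio scaling, quantile normalization, eBayes without trend or robust, a replicate block, each library left out, and, chosen after seeing the data, identical copies summed.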

Additional observations from a re-analysis of the deposited data

How the results depend on the processing

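H1-10 kept its call in all 15 alternatives. The number of called histone genes was 4, and was 2 with no filter (H1-10 and H2BC14), 2 with the replicate block (H1-10 and H2BC5) and 1 to 5 with 1 library left out (1 without control replicate 2). For all tested genes the count of 1550 became 497 with no filter, 993 with eBayes without trend, 362 with the replicate block and 306 to 1390 with 1 library left out (356 and 306 without control replicates 1 and 2, 774 without control replicate 3, 688 and 488 without irradiated replicates 1 and 3). The 16 calls in the lists around histone supply became 8 with no filter, 10 with eBayes without trend, 6 with the replicate block and 6 to 13 with 1 library left out (6 or 7 without any library except irradiated replicate 2). Fits with fewer samples or a block have fewer residual degrees of freedom, and the unfiltered fit tests more genes. At 5 TPM, 13 histone genes reached the level in at least 3 samples.

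The genes whose direction changed were all uncalled. H1-2 was at -0.0089 after median-ratio scaling, and H2BC11 at -0.079 after quantile normalization. With 1 library left out, H1-2 ranged from -0.061 to 0.12, H2BC11 from -0.16 to 0.18, H2BC18 from -0.26 to 0.059, H2AC6 from -0.39 to 0.12, H2AC12 from -0.24 to 0.094 and H4C12 from -0.97 (without control replicate 3) to 0.97 (without control replicate 2); the cause was not tested.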
